A study of Mus musculus with 9 samples.

Results

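Ephx1 and Ephx2 encode the main epoxide hydrolases of the liver, and both were selected on their measured signals on these same arrays, so that their differences are given here as descriptions without a test. Their probes were then chosen by gene name, as every non-control probe annotated to Ephx1 or Ephx2, which gave 2 probes, 1 for each gene, among 37074 gene names. Livers came from male mice in 3 groups of 3 arrays each. AAV-V mice had received an empty adeno-associated virus vector and a regular diet, AAV-GP73 mice had received a vector for GP73 and a regular diet, and AAV-V HFD mice had received the empty vector and a high-fat diet (HFD). All 3 groups thus carried a vector. The paper describes C57BL/6N mice and a vector directed to hepatocytes. An age of 12 months stands in all labels, whereas the paper counts 12 months from injection, and the duration of the HFD differs between its results and its methods. Each array may hold the RNA of 1 mouse or of a pool, which is not stated, so that the spread between arrays may be partly technical. In whole liver, fewer cells of a type and less RNA per cell cannot be told apart.

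An epoxide is a strained oxygen ring that reacts readily with proteins and DNA, and epoxide hydrolases open it with water to a diol. Microsomal epoxide hydrolase, the product of Ephx1, sits in the membrane of the endoplasmic reticulum next to the cytochrome P450 enzymes and handles mainly epoxides of drugs and other foreign compounds. Soluble epoxide hydrolase, the product of Ephx2, is found in the cytosol and in peroxisomes and acts mainly on epoxides of fatty acids, above all the epoxyeicosatrienoic acids made from arachidonic acid. In rodent liver Ephx2 is known as a gene that answers to activators of PPAR alpha, the fatty acid receptor, and Ephx1 as a gene that answers to CAR, PXR and NRF2, receptors and sensors of foreign and reactive compounds.

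The probes are shown because each gene was read through a single stretch of 60 bases. Their first 30 bases, as synthesized on the array, were as follows.
Ephx1: tcgccccactgcatagctgtgttaagctac
Ephx2: taattcttttgagtatgcctgtgccatcag
The Ephx1 probe lies on the minus strand of chromosome 1 of mm9, at chr1:182919689-182919748, and begins at base 1603 of its transcript per the file. The Ephx2 probe lies on the minus strand of chromosome 14, at chr14:66703319-66703378, and begins at base 1892. Whether these bases are coding or untranslated was not determined here. The Ephx2 probe is listed for 4 of the 4 RefSeq mRNAs of its gene, so that it does not tell the variants apart, and the Ephx1 probe for 1 of 2. No other non-control probe shared a run of 20 bases with either, the count being 0 for both.

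The arrays differed in overall brightness, and every value below has to be read against that. A spot is called detected below if the scanner software marked it as well above background. Detected spots made up 10.2% to 10.7% of non-control spots in AAV-V, 16.0% to 18.4% in AAV-GP73 and 13.8% to 16.7% in AAV-V HFD. Over the 2651 probes detected on all 9 arrays the median signal was 33.7 to 38.9 in AAV-V, 105 to 130 in AAV-GP73 and 77.3 to 125 in AAV-V HFD, while the mean log2 signal of 228 spike-in spots, which are added in equal amount, ranged from 10.52 to 11.05, from 10.56 to 10.63 and from 10.63 to 11.01. Slide 1 held the AAV-V and the AAV-GP73 arrays, each group in its own block of positions, and slide 2 held the AAV-V HFD arrays. GP73 is thus confounded with position on the slide, and diet with slide. Neither pair can be told apart. The arrays were scaled so that the 75th percentile of those 2651 probes was equal. Golm1, which encodes GP73, had 1 probe, detected on 0 of 9 arrays, and cannot check the labels.

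Ephx2 was low in AAV-V livers and far higher in both other groups. As scanned, before any scaling, its processed signal was 22.4, 17.5 and 28.3 on the AAV-V arrays. It was 804, 1272 and 1781 on the AAV-GP73 arrays and 404, 583 and 309 on the AAV-V HFD arrays. The 3 groups did not overlap, with AAV-V lowest, AAV-V HFD between and AAV-GP73 highest, and all 9 spots were detected. After scaling, the log2 signal was 5.47 ± 0.22 (SD, n = 3) in AAV-V, 9.72 ± 0.42 (SD, n = 3) in AAV-GP73 and 8.25 ± 0.34 (SD, n = 3) in AAV-V HFD, and the order without overlap remained.

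Ephx1 was dim in AAV-V livers and moved less. Its processed signal was 9.76, 5.88 and 8.97 on the AAV-V arrays, where the lowest of these, on replicate 2, was not detected. It was 56.5, 52.8 and 70.4 on the AAV-GP73 arrays and 49.2, 79.5 and 13.1 on the AAV-V HFD arrays. AAV-GP73 arrays lay close together, whereas AAV-V HFD arrays were spread out, with replicate 3 near the AAV-V level and replicate 2 the brightest of the 9. Feature Extraction put the error of a single spot at 1.48 to 1.88 in AAV-V, 5.49 to 7.15 in AAV-GP73 and 1.93 to 8.09 in AAV-V HFD. The scaled log2 signal was 3.99 ± 0.32 (SD, n = 3) in AAV-V, 5.36 ± 0.07 (SD, n = 3) in AAV-GP73 and 4.76 ± 1.02 (SD, n = 3) in AAV-V HFD.

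**Figure D1:**
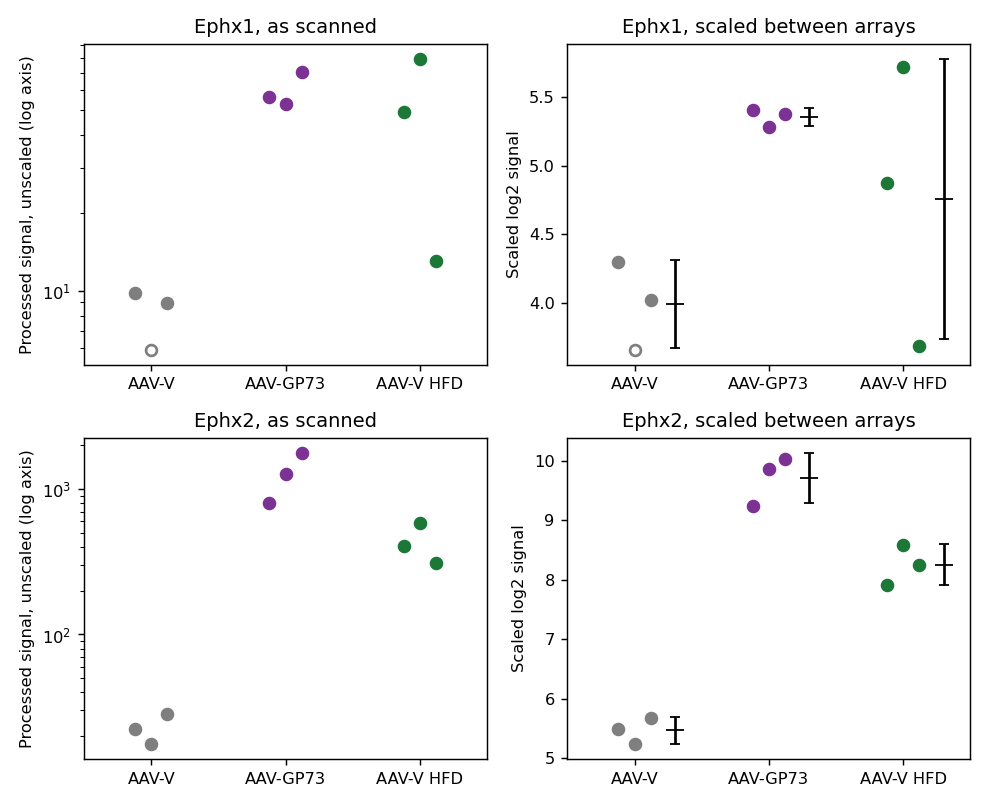
Signal of the Ephx1 probe (top) and the Ephx2 probe (bottom) on each of the 9 arrays by group, as scanned on a log axis (left) and as log2 signal scaled between arrays (right). Points are arrays, the open point is the array where the spot was not detected, and bars give the mean and SD of 3 arrays. Ephx2 shows 3 groups without overlap, and in Ephx1 the AAV-V HFD arrays span the range from AAV-V to above AAV-GP73.

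Between AAV-GP73 and AAV-V, scaled Ephx2 signal differed by 4.25 ± 0.30 on the log2 scale (SE of the limma fit), or 19.0-fold, with a gap of 3.56 between the highest AAV-V and the lowest AAV-GP73 array. Ephx1 differed by 1.36 ± 0.43, or 2.57-fold, with a gap of 0.98, although its difference was -0.11 when the background was corrected by normexp with an offset of 50, a value above the Ephx1 signal of every AAV-V array. Both arms of this comparison lay on 1 slide but in separate blocks of positions, so that group and position cannot be told apart. Higher signal without overlap of the arrays was common in this comparison, being found in 44.8% of the 5759 genes tested, so that the absence of overlap by itself does not set the members apart. The median log2 difference of all genes tested was 0.60, and beyond it Ephx2 was 3.64 higher and Ephx1 0.76 higher. The differences ranked 11 for Ephx2 and 1309 for Ephx1 from the top of the 5759 genes. Among the 2467 genes with all 6 arrays of this comparison detected, Ephx2 ranked 2.

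Between AAV-V HFD and AAV-V, Ephx2 differed by 2.78 ± 0.30 (SE), or 6.88-fold, with a gap of 2.23 between the groups. Ephx1 differed by 0.76 ± 0.43 (SE), or 1.70-fold, and its groups overlapped. This Ephx1 value was 1.30 with replicate 3 of AAV-V HFD left out and 0.28 with its replicate 2 left out, and it was -0.35 with normexp, so that neither its size nor its direction was settled. Of all genes tested, 34.1% were higher in AAV-V HFD without overlap, and the median difference was 0.38. Beyond that median Ephx2 was 2.41 higher and Ephx1 0.39 higher, ranking 30 and 2122 of 5759. Ephx2 again ranked 2, of 2497 genes, with all 6 arrays detected. As the AAV-V arrays serve in this comparison and in the previous one, the rank in one is not independent of the rank in the other.

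AAV-GP73 and AAV-V HFD livers were also set against each other. The AAV-V arrays still entered the scaling, the choice of genes and the shared estimate of spread. Ephx2 was 1.46 ± 0.30 (SE) higher in AAV-GP73 on the log2 scale, or 2.76-fold, with a gap of 0.65, where 15.2% of genes tested were higher without overlap and the median difference was 0.09. Its difference ranked 153 of 5759 genes, and 51 of the 4391 with all 6 arrays detected, lower than in the comparisons with AAV-V. The Ephx1 difference was 0.60 ± 0.43 (SE), and the groups overlapped. The slides differed in this comparison as well, and so did the positions on the slide.

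The size of each difference from AAV-V depended on how the arrays were made comparable. For Ephx2 in AAV-GP73 it ran from 2.81 with normexp to 5.92 with the spike-in spots held equal, and for AAV-V HFD from 1.51 to 4.11 under the same 2 settings. Its sign held under the main scaling and the 6 other ways of scaling and background correction. The median of all genes moved along, from -0.58 with normexp to 2.28 with spike-ins in AAV-GP73, and relative to this median Ephx2 stood between 3.15 and 3.64 higher. Ephx1 ran from -0.11 to 3.04 in AAV-GP73, and relative to the median stood between 0.47 and 0.76 higher. Scalings by 1 factor per array shift all genes alike and could not change these distances from the median. The rank of Ephx2 among all genes tested was lower with quantile normalization, at 27 in AAV-GP73 but 172 for AAV-V HFD, and in the log2 table deposited by the authors, at 67 and 586.

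**Figure D2:**
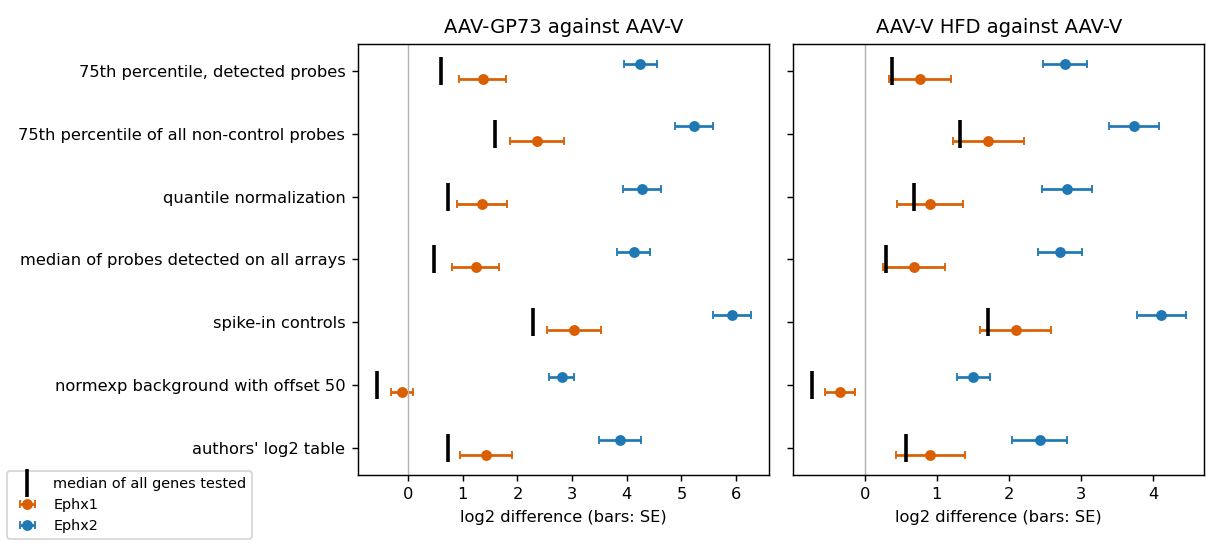
Log2 difference of Ephx1 (orange) and Ephx2 (blue) from AAV-V under 7 ways of scaling or background correction, for AAV-GP73 (left) and AAV-V HFD (right). Bars are SE of the limma fit and black marks the median of the 5759 genes tested. Ephx2 lies to the right of 0 and of that median in every row, and Ephx1 lies near the median and is left of 0 with normexp.

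Because scaling multiplies all spots of an array alike, the ratio of the 2 probes on 1 array does not depend on it. The ratio of different probes carries no level of its own, but its change between groups does. Ephx2 over Ephx1 signal was 2.29, 2.98 and 3.15 on the AAV-V arrays, 14.2, 24.1 and 25.3 on the AAV-GP73 arrays and 8.21, 7.34 and 23.7 on the AAV-V HFD arrays. All 6 arrays of the other groups thus lay above all 3 AAV-V arrays, and the high ratio of AAV-V HFD replicate 3 came with its low Ephx1 signal. The log2 ratio was 2.88 ± 0.50 (SE) higher in AAV-GP73 than in AAV-V and 2.02 ± 0.50 (SE) higher in AAV-V HFD than in AAV-V. It was 0.87 ± 0.50 (SE) higher in AAV-GP73 than in AAV-V HFD, where the arrays overlapped. With the AAV-V array that did not detect Ephx1 set to its detection limit, the first 2 values were 2.95 and 2.09. As that limit lies above the signal of the spot, this step could only raise both values. A lower Ephx1 signal there would reduce them.

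**Figure D3:**
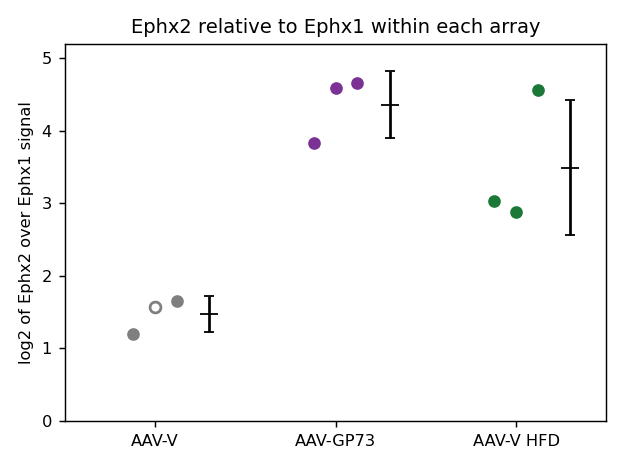
Log2 ratio of Ephx2 to Ephx1 processed signal on each array by group, with bars for the mean and SD of 3 arrays. The open point is the AAV-V array whose Ephx1 spot was not detected, and all arrays of the AAV-GP73 and AAV-V HFD groups lie above the AAV-V arrays.

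The genes around these enzymes were examined in 9 lists, each described by how many of its tested members were called in limma, with an adjusted p under 0.05 and a change of 2-fold or more. In all, 52.7% of the 5759 genes tested were called in AAV-GP73 against AAV-V, 33.4% upward and 19.3% downward. In AAV-V HFD against AAV-V the share was 43.1%, made up of 25% upward and 18.1% downward. Across the lists 10 genes were placed in 2 lists each, so that counts of different lists are not independent. A list has to be read against those shares of all genes, whose split moved with the processing, as 63.4% and 58.0% of these calls were upward here against 98.1% and 98.1% with spike-ins and 16.2% and 8.06% with normexp. It also turned with the filter under the same scaling, to 33.1% and 28.0% upward among genes detected on all 9 arrays and to 6.78% and 5.42% with no filter. Between AAV-GP73 and AAV-V HFD 2.54% were called, 1.98% upward and 0.556% downward.

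Many upward calls came from genes that no AAV-V array detected. Such a gene entered the test only through the group where it was bright and so had to differ, and what can be given for it is a least fold change, which takes the dim arrays at their detection limits. Of the 1924 upward calls in AAV-GP73, 1268 were of this kind and 241 of those had a least fold change of 2 or more, and of the 1439 in AAV-V HFD, 947 were of this kind and 122 reached it. With such genes at their bounds and genes detected in neither group left out, the median log2 difference of all genes tested was -0.18 and -0.36 instead of 0.60 and 0.38. The counts below are descriptions and support no direction of a list.

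Other enzymes that act on epoxides were mostly too dim to compare. Of the 7 related genes on the array only Ebp, a sterol isomerase that forms part of the microsomal cholesterol epoxide hydrolase, was tested, and it was not called, with log2 differences of 0.14 ± 0.25 and -0.19 ± 0.25 (SE) in AAV-GP73 and AAV-V HFD. Ephx3, a further epoxide hydrolase, was detected on 2 of 3 AAV-GP73 arrays and on 0 of the AAV-V and AAV-V HFD arrays. Lta4h, which opens the epoxide of leukotriene A4, was detected on 2 AAV-GP73 arrays, 1 AAV-V HFD array and 0 AAV-V arrays. Ephx4, Rnpep and Dhcr7 were not detected in any group, and Mest was on 1 AAV-V HFD array. Against AAV-V, the least fold change in AAV-GP73 was 0.30 for Ephx3 and 0.42 for Lta4h. In AAV-V HFD it was 0.38 for Lta4h and 0.18 for Mest, so that no direction is given for these genes. With AAV-GP73 replicate 1 or 2 left out, 2 of this list were tested and 1 was called in AAV-GP73, higher without the former and lower without the latter, which also gave 1 lower in AAV-V HFD.

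Among the P450 epoxygenases that make fatty acid epoxides, the substrates of soluble epoxide hydrolase, 2 of 12 tested were called higher against 1 lower in AAV-GP73, and likewise 2 and 1 in AAV-V HFD. Those called higher were Cyp2c50 and Cyp2c54, which no AAV-V array detected and which were at least 1.77-fold higher each in AAV-GP73 and at least 1.60-fold and 1.52-fold in AAV-V HFD. Cyp2c29 fell by 1.34 ± 0.26 (adjusted p = 0.000954) and by 1.29 ± 0.26 (adjusted p = 0.00195). The Cyp2c genes are close relatives, and their probes may share signal. The median of the list was 0.58 and 0.28, and -0.14 and -0.04 with genes undetected in 1 group at their bounds. The count of 3 in AAV-GP73 became 5 with AAV-V replicate 2 left out, and that of 3 in AAV-V HFD became 1 without its replicate 1 or 2 and 5 without its replicate 3.

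Of the P450s that act on foreign compounds and their electron donors, 6 of 14 tested were called higher against 1 lower in AAV-GP73, and 2 higher against 3 lower in AAV-V HFD. Cyb5a, the cytochrome b5 that passes electrons to P450s, rose by 2.41 ± 0.30 and 2.57 ± 0.30 (adjusted p = 0.000112 and 0.000224). Cyp2e1, which oxidises ethanol and small solvents, rose by 1.67 ± 0.44 and 1.40 ± 0.44 (adjusted p = 0.0062 and 0.0189). Cyp2a5 fell by 1.03 ± 0.38 in AAV-GP73 (adjusted p = 0.0349), and Cyp3a41a fell by 1.63 ± 0.60 in AAV-V HFD (adjusted p = 0.0363), with 2 of 3 arrays of each group detected. In AAV-GP73 Cyp3a41a rose by 1.65 ± 0.60 against AAV-V (adjusted p = 0.0308). Cyp1a2 was also called lower in AAV-V HFD but was detected on 0 arrays of either group, so that no size is given. The median of the list was 0.88 for AAV-GP73 but 0.14 for AAV-V HFD, or 0.81 and 0.15 with bounds, and the AAV-GP73 count of 7 became 2 without AAV-V replicate 2, while the AAV-V HFD count of 5 became 3 without AAV-V replicate 1 or 3.

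The glutathione route removes epoxides by conjugation instead of hydrolysis, and 13 of 18 tested members were called higher against 1 lower in AAV-GP73, with a median of 1.77. In AAV-V HFD 10 were called higher and 1 lower, with a median of 1.14. Gclc, the catalytic subunit of the enzyme that limits glutathione synthesis, was at least 1.85-fold and at least 1.15-fold higher, as no AAV-V array detected it. Gsto1, an omega class glutathione transferase, was at least 4.97-fold and at least 2.71-fold higher for the same reason. Gsta4, which conjugates products of lipid peroxidation, went the other way and fell by 2.33 ± 0.45 and 2.66 ± 0.45 (adjusted p = 0.00109 and 0.000944). Glutathione transferase genes are a family of near copies, so that single probes are uncertain. Among the upward calls, 6 in AAV-GP73 but 5 for AAV-V HFD were undetected in AAV-V, with a least fold change of 2 or more for 4 and 3, and with bounds the medians were 1.28 and 0.89. With normexp 2 were called higher and 1 lower in each comparison.

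PPAR alpha and its target genes had the largest median difference from AAV-V of the 9 lists under the main scaling. Of 29 tested, 28 were called higher against 1 lower in AAV-GP73, with a median of 3.20, and 23 higher against 2 lower in AAV-V HFD, with a median of 2.14. Of those called higher in AAV-GP73, 16 were undetected in AAV-V, and the least fold change exceeded 1 for 13 and was 2 or more for 12 of these. In AAV-V HFD 13 were undetected in AAV-V, of which 9 exceeded 1 and 4 reached 2. With bounds the medians were 2.05 and 1.11. Ppara itself, the receptor, was such a gene and was at least 2.17-fold and at least 1.81-fold higher. Plin2, a coat protein of lipid droplets, was at least 9.83-fold and Ehhadh, the bifunctional enzyme of peroxisomal beta-oxidation, at least 5.64-fold higher in AAV-GP73. Hadhb, a subunit of the mitochondrial trifunctional protein, was at least 2.36-fold higher in AAV-V HFD. Acaa1a, a peroxisomal thiolase with a close copy in Acaa1b, fell by 1.52 ± 0.36 and 2.36 ± 0.36 (adjusted p = 0.00339 and 0.000587). Cyp4a14 was called lower in AAV-V HFD but was detected in neither group. The median of the list stayed above that of all genes under the 8 alternatives on scaling, background, block and filter, by 1.10 to 3.78 for AAV-GP73 and by 0.44 to 2.92 in AAV-V HFD, although with normexp 7 were called higher in AAV-GP73 but 3 in AAV-V HFD. The glutathione, CAR, PXR and NRF2 and housekeeping lists also stayed above the median of all genes under those 8 alternatives in both comparisons. For housekeeping genes this was by 0.21 to 2.56 in AAV-GP73 and by 0.32 to 1.77 in AAV-V HFD. Among the 8, scalings by 1 factor per array shift all genes alike, and the block leaves the differences unchanged. These could not move a list relative to that median and are no check of its distance. The Ephx2 difference exceeded the median of the PPAR alpha list in both comparisons and the Ephx1 difference did not, with or without bounds.

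Of CAR, PXR, NRF2 and their targets, the list nearest to the known control of Ephx1, 9 of 13 tested were called higher against 0 lower in AAV-GP73 (10 and 1 at an unadjusted p under 0.05), and 5 higher against 1 lower in AAV-V HFD, with medians of 1.41 and 0.81. Of all 5759 genes tested, 3827 had an unadjusted limma p under 0.05 in AAV-GP73 against AAV-V, in either direction. Gclc, Gclm, Gstm1 and Gstm3 are among the 9 and also stand in the glutathione list, so that these calls are counted in both. Of the 9, 6 were undetected in AAV-V, and their least fold change reached 2 for 1 and did not exceed 1 for Aox1, an aldehyde oxidase, and Pir, known as pirin. In AAV-V HFD 3 of the 5 were undetected in AAV-V and 1 reached 2, and with bounds the medians were 0.54 and 0.48. Nr1i3, which encodes CAR, was not called, with differences of -0.92 ± 0.40 and -0.88 ± 0.40 (adjusted p = 0.0627 and 0.078). Nr1i2, which encodes PXR, was detected on 0 arrays, and Nfe2l2, which encodes NRF2, was on 2 AAV-GP73 arrays alone. For Nfe2l2 the least fold change in AAV-GP73 against AAV-V was 0.43, so that no direction is given. Txnrd1, a thioredoxin reductase and NRF2 target, was at least 1.67-fold higher in AAV-GP73. Taldo1, an enzyme of the pentose phosphate pathway and NRF2 target, rose by 1.95 ± 0.30 in AAV-V HFD (adjusted p = 0.000587), with 1 of 3 AAV-V arrays detected. Ces2a was called lower in AAV-V HFD without detection in either group. With normexp, 0 were called higher in either comparison, where 2 and 0 were higher at an unadjusted p under 0.05.

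Peroxisome membrane and import proteins, which set up the organelle that holds part of soluble epoxide hydrolase, had 9 of 12 called higher against 1 lower in AAV-GP73, and 7 higher against 1 lower in AAV-V HFD, with medians of 1.47 and 1.15. Of the 9, 6 were undetected in AAV-V, and for 4 of these, Pex5, Pex7, Pex11g and Pex19, the least fold change did not exceed 1, so that no size is given, while 1 reached 2. In AAV-V HFD 4 of the 7 were undetected in AAV-V, of which 2 exceeded 1 and 1 reached 2. With bounds the medians were -0.35 and -0.43, opposite in sign to the fitted ones. Pex11a, which promotes peroxisome division, was at least 7.42-fold and at least 4.24-fold higher. Scp2, a peroxisomal sterol carrier and thiolase, rose by 3.11 ± 0.29 and 2.54 ± 0.29 (adjusted p = 3.69e-05 and 0.000218). Pex6, an ATPase of the import cycle, fell by 2.73 ± 0.32 and 2.26 ± 0.32 (adjusted p = 9.22e-05 and 0.000457). With normexp 1 was called higher and 1 lower in each comparison.

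Genes that release arachidonic acid or oxidise it by other routes were mostly untested, with 7 of 28 on the array tested. In AAV-GP73 1 was called higher and 1 lower, and in AAV-V HFD 1 higher and 2 lower, with medians of 0.63 and 0.65, or -0.91 and -1.02 with bounds. Ptges3, a cochaperone with prostaglandin E synthase activity, rose by 1.53 ± 0.26 and 1.54 ± 0.26 (adjusted p = 0.000475 and 0.000896). Ltc4s, leukotriene C4 synthase, fell by 1.80 ± 0.26 and 1.45 ± 0.26 (adjusted p = 0.000195 and 0.00113), and Cyp4a12b, an omega-hydroxylase with a near copy, fell by 1.12 ± 0.36 in AAV-V HFD (adjusted p = 0.0201).

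Housekeeping genes moved as well, which bears on every difference from AAV-V. Of 15 tested, 8 were called higher against 1 lower in AAV-GP73, and 8 higher against 2 lower in AAV-V HFD, with medians of 1.04 and 1.01, or 0.89 and 0.42 with bounds. Sdha, a subunit of succinate dehydrogenase, was at least 2.43-fold and at least 1.77-fold higher, and Hprt, a purine salvage enzyme, at least 3.06-fold and at least 2.29-fold. Ywhaz, a 14-3-3 protein, fell by 1.36 ± 0.32 and 1.21 ± 0.32 (adjusted p = 0.00354 and 0.0086). The Ephx1 difference in AAV-GP73 was 0.32 above the median of the housekeeping list and in AAV-V HFD -0.25 relative to it, whereas Ephx2 was 3.20 and 1.77 above it.

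Neither AAV-GP73 nor AAV-V HFD holds the dim AAV-V arrays, which still enter the scaling, the choice of genes and the estimate of spread. Between AAV-GP73 and AAV-V HFD, 6 of the 29 PPAR alpha genes were called higher in AAV-GP73 and 0 lower (17 and 0 at an unadjusted p under 0.05). The median of the list was 0.83 against 0.09 for all genes. Of all 5759 genes tested, 917 had an unadjusted limma p under 0.05 in this comparison, in either direction. The unadjusted counts of the lists have to be read against that share. Ehhadh was 3.40 ± 0.28 higher (adjusted p = 0.000121), Plin5, a lipid droplet protein, 2.66 ± 0.38 higher (adjusted p = 0.00638) and Plin2 2.46 ± 0.52 higher (adjusted p = 0.0306). Of the xenobiotic P450s 2 were called higher, Cyp3a41a by 3.28 ± 0.60 (adjusted p = 0.017) and Cyp2f2 by 1.20 ± 0.24 (adjusted p = 0.0272), and 0 lower (4 and 1 at an unadjusted p under 0.05). The glutathione, CAR, PXR and NRF2 and peroxisome lists had 1 higher and 0 lower each (at an unadjusted p under 0.05, 3, 3 and 4 higher against 0 lower). The CAR, PXR and NRF2 call was Ces2a, and 1 of the 6 PPAR alpha calls was Cyp4a14. Both were tested with 0 AAV-V HFD arrays detected, and they were at least 1.13-fold and at least 1.86-fold higher. The remaining 4 lists had 0 called, and at an unadjusted p under 0.05 each had 0 or 1 higher against 0 lower. Genes named here for this comparison were chosen after their values were seen.

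**Figure D4:**
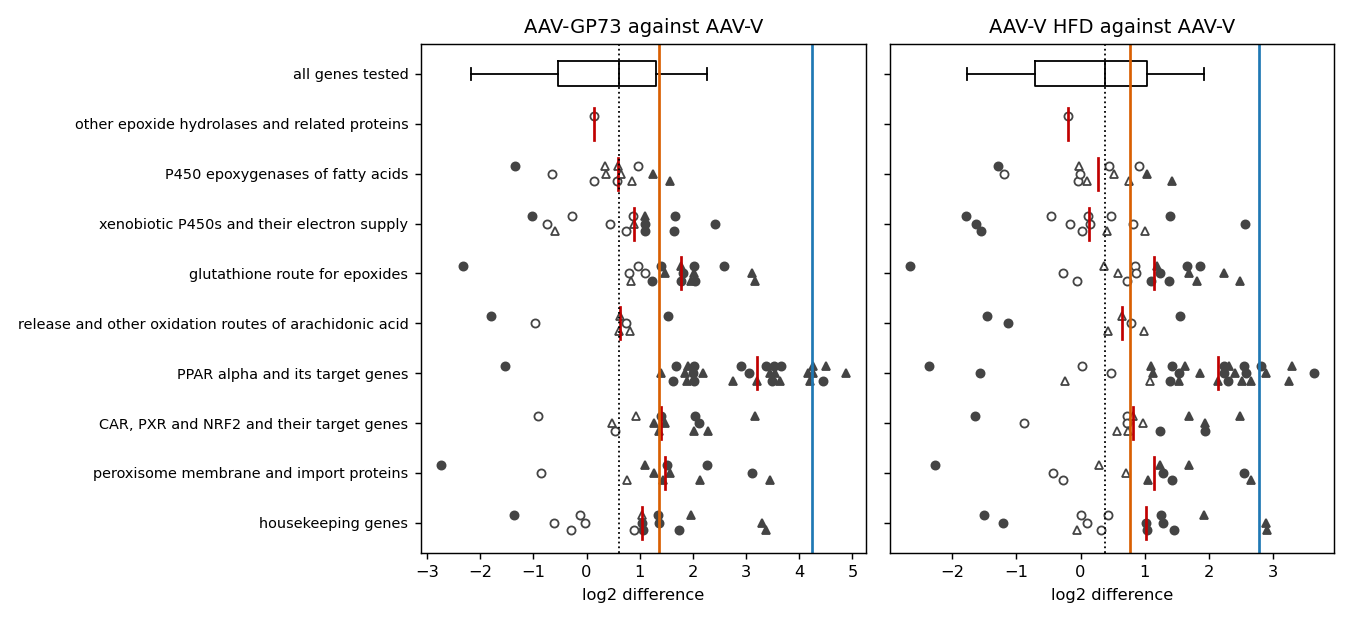
Log2 difference of each tested gene in 9 lists, for AAV-GP73 (left) and AAV-V HFD (right) against AAV-V, with all 5759 genes tested as a box from the 25th to the 75th percentile and whiskers from the 5th to the 95th. Filled symbols were called, triangles mark genes undetected throughout 1 group, whose fitted value is no measured size, and short red lines are list medians. The orange and blue lines mark Ephx1 and Ephx2 and the dotted line the median of all genes. Ephx2 lies above the medians of all 9 lists.

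Genes with a pattern like that of each member over the 9 arrays were taken from those detected on all 9. For Ephx2 these included Ubb, a polyubiquitin gene, with Pearson's r = 0.99, Decr1, a mitochondrial enzyme for unsaturated fatty acids, with 0.99, a transcript named in the file only by its position on chromosome 17 with 0.98 and Chchd10, a mitochondrial protein, with 0.98. Of the 2413 genes compared, 191 had an r over 0.9 with Ephx2. For Ephx1 they were Mgst1, a microsomal glutathione transferase of the same membrane, with r = 0.96, Mup2 with 0.93, the lysosomal membrane protein Lamp1 with 0.93, Creg1 with 0.92 and Mup17 with 0.92, and 10 of 2414 genes had an r over 0.9. Mup2 and Mup17 belong to the major urinary proteins, a family of near copies. These correlations are descriptions, as the arrays fall into groups and share slides. With the group means removed, r with Ephx1 was 0.96 for Mup2, 0.94 for Mgst1, 0.90 for Mup17, 0.85 for Lamp1 and 0.83 for Creg1. For the genes named with Ephx2 it was 0.95 for the chromosome 17 transcript, 0.94 for Ubb, 0.91 for Chchd10 and 0.85 for Decr1. Within groups, Ephx1 varied mainly among the AAV-V HFD arrays (SD 1.02, against 0.32 in AAV-V and 0.07 in AAV-GP73). The r values with Ephx1 thus rest mainly on the AAV-V HFD arrays.

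The tissue matched its label by hepatocyte markers, all 13 of which were detected on at least 1 array and 12 on all 9. Their summed scaled signal ranged from 27799 to 47112 in AAV-V, from 28621 to 40880 in AAV-GP73 and from 18665 to 30854 in AAV-V HFD, with overlap between neighbouring groups. Erythroid markers, 5 of 5 detected, summed to 375 to 908 in AAV-V, 3317 to 16648 in AAV-GP73 and 619 to 1088 in AAV-V HFD, so that they moved with the AAV-GP73 comparison. T and B cell markers, 4 of 8 detected, summed to 1791 to 3476, 422 to 818 and 855 to 1448, and Cd3e, Cd79a and Ptprc, among the defining ones, were detected on no array. Macrophage and Kupffer cell markers, 8 of 9 detected, summed to 155 to 166 in AAV-V, 194 to 259 in AAV-GP73 and 212 to 276 in AAV-V HFD, and Timd4 was detected on no array. Stellate cell and fibroblast markers, 7 of 9 detected, summed to 157 to 275, 174 to 209 and 88.9 to 140, with Col1a1 and Lrat detected on no array. Of 3 tested, 2 were called lower in AAV-V HFD, where 18.1% of all genes tested were, and in AAV-GP73 1 was higher and 1 lower. Adipocyte markers, 1 of 5 detected, summed to 3.25 to 3.64, 4.34 to 8.19 and 5.36 to 11.6, with Adipoq, Plin1, Retn and Lep detected on no array. The part of these cells and of the overall dimness of the AAV-V arrays in the Ephx1 and Ephx2 differences was not tested.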

How the data were processed

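Liver RNA carrying Cy3 was read on 9 Agilent arrays of a single colour, 3 per group, grouped by the labels. The deposited intensity values came from Feature Extraction, version 12.0.3.1 per the file headers and 10.7 per the labels, with background subtracted and detrended within each array and no scaling between arrays. The log2 table deposited by the authors holds 1 value for each of 56605 probe names, and its normalization is not given in the sources used here. It served as an alternative. Probe positions, given in the files, refer to mm9, and mRNA variants were counted in RefSeq on GRCm38.p6.

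Control spots and the 98 to 151 outlier spots per array were left out and 0 spots were saturated. Log2 processed signal of each array was set to an equal 75th percentile over the 2651 probes detected (marked well above background) on all 9, since under 1 in 5 spots was detected. Each gene name took its brightest probe, and 5759 genes detected on every array of 1 group or more entered the test with limma 3.58.1 in R 4.3.3 (lmFit and eBayes on all 3 groups), with Benjamini-Hochberg adjustment. A gene was called with an adjusted p under 0.05 and a change of 2-fold or more. Adjusted p values in the text are from this limma test. For a least fold change, an undetected array took the lowest signal of its own detected probes, or its own value if higher. Steps were tested on simulated data. Precision is limited by the number of arrays.

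The members, lists and tests were chosen with earlier results of these data known. Genes named were the members, the 2 largest called rises and falls of each list in each comparison with AAV-V, all other epoxide hydrolases and related genes, Ppara, Nr1i2, Nr1i3 and Nfe2l2, the 5 genes most like each member, genes within 200 kb, and Golm1. Some genes that this rule names are not reported here. Alternatives were other scalings, normexp, the log2 table, other filters, probes and tests, the replicate number as a block and leaving out each array.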

Additional observations from a re-analysis of the deposited data

How the results depend on the processing

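Calls and sizes against AAV-V rest on dim AAV-V arrays and on how the arrays were made comparable, and the cause of the shifts below was not tested unless given. Leaving out arrays, the replicate block and the detection limit moved no Ephx1 or Ephx2 difference by more than its spread between replicates, and the Ephx2 differences kept their sign under all alternatives run. The difference of AAV-GP73 and AAV-V HFD for Ephx1 and the 3 changes of the Ephx2 to Ephx1 ratio stayed within that spread under all theirs. No other probe of either gene exists, so that this alternative could not be run. Replicate numbers did not pair the samples, as correlations of residuals between equal numbers lay between -0.12 and 0.17 with 2 of 9 over 0.1. With the replicate number as a block 3037, 2491 and 92 genes were called in the AAV-GP73 to AAV-V, AAV-V HFD to AAV-V and AAV-GP73 to AAV-V HFD comparisons against 3037, 2480 and 146 without, and no other call changed by more than 1.5 times.

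With the 75th percentile of all non-control probes the differences from AAV-V were 2.35 and 1.71 for Ephx1 and 5.23 and 3.73 for Ephx2 in AAV-GP73 and AAV-V HFD. With spike-ins they were 3.04 and 2.09 for Ephx1 and 5.92 and 4.11 for Ephx2, and Ephx2 was 1.81 higher in AAV-GP73 than in AAV-V HFD. With normexp they were -0.11 and -0.35 for Ephx1, reversed, and 2.81 and 1.51 for Ephx2. An offset of 50, added before the scaling, shrinks differences of dim probes by construction. Shrinking by itself does not reverse a difference, and the cause of the reversal was not tested. With the authors' table Ephx2 gave 3.88 and 2.43.

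Genes called in AAV-GP73 against AAV-V numbered 850 with normexp, 29579 with no filter and 1177 with detection on all 9 arrays. In AAV-V HFD against AAV-V they numbered 893, 27846 and 1017, and 3844 with spike-ins and 1563 with the methods' t-test after Benjamini-Hochberg. In AAV-GP73 against AAV-V HFD they numbered 33 with quantile normalization, 303 with spike-ins, 42 with normexp, 12 with the authors' table, 30 with no filter, 65 with detection on all 9 arrays, 326 by the methods' t-test unadjusted and 13 adjusted, and 27 to 161 on leaving out arrays (81, 42 and 27 without AAV-GP73 replicate 1, 2 and 3, and 74 without AAV-V HFD replicate 1). Of the calls in AAV-GP73 and AAV-V HFD 63.4% and 58.0% were higher, against 90.3% and 94.7% with all non-control probes, 98.1% and 98.1% with spike-ins and 16.2% and 8.06% with normexp, 33.1% and 28.0% with detection on all 9 arrays and 6.78% and 5.42% with no filter.

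Called members of the lists, in AAV-GP73 and AAV-V HFD where both are given, changed as follows. With all non-control probes they were 10 and 7 for P450 epoxygenases, 5 and 5 for arachidonic acid, 8 in AAV-V HFD for xenobiotic P450s, 11 in AAV-V HFD for CAR, PXR and NRF2 and 1 in AAV-GP73 for other epoxide hydrolases. With quantile normalization and with the authors' table they were 6 and 6 for arachidonic acid and 4 in AAV-GP73 for xenobiotic P450s, which was also 4 with the median of detected probes. With spike-ins they were 11 and 10 for P450 epoxygenases, 12 and 9 for xenobiotic P450s, 5 and 5 for arachidonic acid, 1 and 1 for other epoxide hydrolases, 14 in AAV-GP73 for housekeeping, and 17 for glutathione and 11 for CAR, PXR and NRF2 in AAV-V HFD. With normexp they were 8 and 5 for PPAR alpha, 3 and 3 for glutathione, 2 and 2 for peroxisome proteins, 3 and 5 for housekeeping, 1 and 1 for arachidonic acid, 0 and 1 for P450 epoxygenases (9 and 11 lower at an unadjusted p under 0.05), 0 and 1 for CAR, PXR and NRF2 and 2 in AAV-GP73 for xenobiotic P450s. With no filter they were 18 and 15 for CAR, PXR and NRF2, 11 and 9 for P450 epoxygenases, 15 and 13 for xenobiotic P450s, 13 and 18 for arachidonic acid, 4 and 3 for other epoxide hydrolases and 13 in AAV-V HFD for peroxisome proteins. On leaving out arrays they ranged from 3 to 5 and from 1 to 5 for P450 epoxygenases, from 2 to 7 and from 3 to 5 for xenobiotic P450s and from 0 to 1 in both for other epoxide hydrolases.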

Other observations

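Genes near the 2 members on the chromosome were looked at for comparison. Within 200 kb of the Ephx2 probe 9 other genes had a probe and 3 were tested. Clu, a secreted chaperone, rose by 1.49 in AAV-GP73 (limma adjusted p = 0.0162) and differed by 0.93 in AAV-V HFD (adjusted p = 0.108). Gulo, the last enzyme of vitamin C synthesis in mice, had fitted differences of 1.31 and 1.66 (adjusted p = 0.0061 and 0.00237). The unnamed transcript AK038258 had fitted differences of -1.29 in AAV-GP73 (adjusted p = 0.00424) and -0.92 in AAV-V HFD. Gulo and AK038258 were detected on 6 of 9 arrays each, and where a group lacked detection their fitted values are no measured size. The fitted values of all 3 genes were smaller in size than the Ephx2 differences of 4.25 and 2.78. Within 200 kb of the Ephx1 probe 15 other genes had a probe and 2 were tested, H3f3a, a histone H3.3 gene, with rises of 1.79 and 1.43 (adjusted p = 0.000203 and 0.00124), and Gm10257 with 1.64 and 1.26 (adjusted p = 0.000592 and 0.00405). Both values of both genes were above the Ephx1 differences of 1.36 and 0.76.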
